A study of Mus musculus with 51 samples.

Results

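The forkhead (Fox) genes encode transcription factors that share 1 DNA-binding domain, the winged helix. The members described here are the autosomal genes whose symbol is Fox, a letter from a to s and a number, and which the authors' peak tables give as the name of at least 1 peak. There were 29 such genes among 18979 autosomal symbols that name a peak, and 1 further gene of the pattern was left out. They include Foxa1, Foxa3, Foxb1, Foxb2, Foxd1, Foxd4, Foxe1, Foxe3, Foxi1, Foxi2, Foxi3, Foxj1, Foxj2, Foxj3, Foxk1, Foxk2, Foxl2, Foxn1, Foxn2, Foxn3, Foxn4, Foxo1, Foxo3, Foxo6, Foxp1, Foxp2, Foxp4 and Foxr1. A peak carries 1 name, so 11 other autosomal forkhead genes, Foxd3 and Foxh1 among them, name none because their start lies in a peak named for a neighbouring transcript or in no peak. These are described from the windows around their starts.

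H3K4me3, H3K27me3 and H3K36me3 were profiled by ultra-low-input native ChIP-seq in epiblast and extra-embryonic ectoderm (ExE) of mouse embryos at embryonic day 6.5. B6/CAST and CAST/B6 were wild-type F1 hybrids of C57BL6/Babr (B6) and CAST/Ei, with the mother written first. In matDKO/CAST the mothers, of B6 and 129 background, carried floxed Dnmt3a and Dnmt3b that Zp3-cre deletes in the oocyte, and the fathers were CAST. Those embryos were heterozygous for both genes and inherited no DNA methylation from the mother. Each of the 36 ChIP libraries, 2 for every mark, tissue and cross, came, by the labels, from a pool of 4 epiblasts or 8 ExE (a supplementary record of the study gives fewer for 1 matDKO/CAST ExE pool), an estimated 2500 cells, and 15 inputs were made alongside. The antibodies received portions of the same chromatin, so values of different marks can come from the same pool. The p-values below measure the spread between these pools alone.

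Forkhead factors bind DNA in many tissues, and single members are known as regulators of one organ. Several genes of the family are classic examples of bivalent promoters, with H3K4me3, a mark of active and poised gene starts, and H3K27me3, the mark of Polycomb repression, over the same CpG-rich start. H3K36me3 accumulates along the bodies of transcribed genes. The members were described in 4 groups, namely 13 genes known for neural or ectodermal roles, 3 for endodermal or ciliary roles (Foxa1, Foxa3 and Foxj1), 3 others (Foxl2 of the ovary, Foxn1 of the thymus epithelium and Foxr1) and 10 widely used genes (Foxj2, Foxj3, Foxk1, Foxk2, Foxn2, Foxn3, Foxo1, Foxo3, Foxp1 and Foxp4).

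The ChIP libraries held about 4010000 to 17880000 reads for H3K4me3, 3680000 to 22910000 for H3K27me3 and 2090000 to 12590000 for H3K36me3. The tissues were checked by summed H3K4me3 at the starts of marker genes, in the wild-type libraries. The 8 epiblast markers summed to 184.7 to 238.6 RPKM in epiblast and 79.8 to 115 in ExE, and 5 of them were lower in ExE. The 8 ExE markers summed to 87.8 to 132 in epiblast and 130 to 171 in ExE, with 2 higher in ExE and Elf5 under 0.5 RPKM in both tissues. The 9 visceral endoderm markers summed to 38.6 to 71.1 in epiblast and 59.1 to 98.3 in ExE, with 4 higher in ExE and 1 lower, and the part of such cells in the results below was not tested. The 5 decidua markers summed to 20.8 to 32.6 and 12 to 26.5, with 1 lower in ExE and Prl8a2 under 0.5 RPKM in both tissues.

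Promoter sequences were at hand for 21 of the 29 members (RefSeq, GRCm38.p6). Over 300 bases around the start, these held a median of 22 CpG dinucleotides against 7 over 31396 autosomal promoters. At least 10 CpG were found in 17 of the 21 (81.0%), against 44.0% of all promoters, and the median GC content was 62.7% against 53%. The forkhead core motif TGTTTAC, searched on both strands (GTAAACA on the other), was found in 1 of the 21 (4.76%), Foxa1, against 3.71% of all promoters. Members with peaks of both marks over the start in B6/CAST epiblast had a median of 18.5 CpG (n = 10), and those with H3K4me3 alone had 26.5 (n = 8). Peaks were read at the annotated gene start, which can differ from the start of the promoter sequence. The distance was 113508 bases for Foxn3 and 1728 for Foxp1, both with H3K4me3 alone, so these medians do not all pair CpG and peaks of the same start. The 250 bases upstream of 3 starts are printed, since these genes had the largest fall and the largest rise of H3K4me3 and the largest rise of H3K27me3 in ExE among called leading regions. They are Foxn4 (chr5:114273762-114274011, minus strand, 17 CpG), Foxr1 (chr9:44440869-44441118, minus strand, 15 CpG) and Foxn1 (chr11:78386609-78386858, minus strand, 7 CpG). All 3 lie inside the regions measured below, and capitals mark each CpG.
Foxn4: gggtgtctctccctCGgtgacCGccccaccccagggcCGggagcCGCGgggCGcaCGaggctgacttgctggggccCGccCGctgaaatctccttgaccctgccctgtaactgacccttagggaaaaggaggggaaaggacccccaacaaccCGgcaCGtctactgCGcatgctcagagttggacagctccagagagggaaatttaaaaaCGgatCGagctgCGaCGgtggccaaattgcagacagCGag
Foxr1: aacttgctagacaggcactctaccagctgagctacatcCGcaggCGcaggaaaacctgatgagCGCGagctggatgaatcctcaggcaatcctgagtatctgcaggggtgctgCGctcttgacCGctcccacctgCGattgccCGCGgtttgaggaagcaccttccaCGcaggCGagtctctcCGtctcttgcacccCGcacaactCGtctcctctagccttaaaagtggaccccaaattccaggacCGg
Foxn1: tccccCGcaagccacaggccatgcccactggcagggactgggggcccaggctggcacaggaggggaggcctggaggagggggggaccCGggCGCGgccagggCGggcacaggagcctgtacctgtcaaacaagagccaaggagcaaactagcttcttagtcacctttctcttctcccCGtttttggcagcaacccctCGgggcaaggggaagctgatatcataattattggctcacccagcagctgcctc

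The first comparison asked how H3K4me3 at forkhead genes differed between ExE and epiblast. H3K4me3 was lower in ExE at 15 of 28 members and higher at 1, Foxr1, and the falls lay mostly in the neural and ectodermal group. All 12 measured genes of that group were lower in ExE, with a median log2 difference of -0.98. Of the 10 widely used genes 1 was lower, Foxp1, and their median was -0.10. The groups, with Foxe1 of the thyroid in the neural and ectodermal one, were drawn up with earlier results of these data known. The split between groups is a description and was not tested. Over the leading regions of all 15885 named genes, 19.1% were lower and 11.2% were higher, with a median of -0.04 against -0.41 for the members. A leading region is the merged peak region that bears the gene's name and has the most signal. Its level is the mean RPKM (read density scaled for length and library depth) of its 1 kb windows, and tests were made with limma on log2(RPKM + 0.5), with adjustment over all regions of the mark. Such levels come from bulk tissue, so fewer cells that carry a mark and less of it per cell cannot be told apart.

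Foxn4, which directs retinal interneuron fates, had the largest fall among the leading regions. Over its leading region (chr5:114270000-114277000, which holds the promoter printed above) the epiblast levels were 5.82 and 5.9 RPKM for B6/CAST, 4.14 and 4.29 for CAST/B6 and 5.32 and 3.53 for matDKO/CAST. The ExE levels were 2.02 and 2.09, 0.947 and 1.2, and 1.41 and 1.85 in the same crosses. Every ExE library lay below every epiblast library. The wild-type difference was -1.45 ± 0.156 on the log2 scale (limma, SE, adjusted p = 2.2e-09), with -1.32 for B6/CAST, -1.59 for CAST/B6 and -1.19 for matDKO/CAST.

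Foxi3, a gene of the ectodermal placodes and the ear, had 6.45 and 6.86 RPKM in B6/CAST epiblast and 7.39 and 6.74 in CAST/B6 epiblast. In ExE it had 2.44 and 2.8 RPKM in B6/CAST and 1.8 and 2.28 in CAST/B6. The tissues did not overlap, and the log2 difference was -1.39 ± 0.157 (limma, adjusted p = 6.6e-09). Foxb1, a gene of the hypothalamus and midbrain, had 5.83, 6.12, 8.33 and 3.54 RPKM in the 4 wild-type epiblast libraries and 2.57, 2.49, 1.25 and 1.82 in ExE, again without overlap, and 1 CAST/B6 epiblast library stood well below the other (log2 difference -1.33 ± 0.176). Foxp2, known for its part in vocal circuits of the brain, had 9.72, 9.32, 9.3 and 8.57 RPKM in epiblast and 3.97, 3.73, 2.16 and 4.24 in ExE (-1.31 ± 0.165).

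The fifth largest fall was that of Foxa1, a pioneer factor of the endoderm, and not of a neural gene. Its region (chr12:57533000-57556000) had 6.68 and 6.22 RPKM in B6/CAST epiblast, 4.68 and 4.32 in CAST/B6 epiblast, 3.33 and 3.03 in B6/CAST ExE and 1.32 and 2.24 in CAST/B6 ExE. The log2 difference was -1.04 ± 0.154 (limma, adjusted p = 1.4e-06). Foxb2 followed with 4.25, 5.71, 2.76 and 2.54 RPKM in epiblast and 2.41, 2.06, 0.938 and 1.06 in ExE (-1.03). Its B6/CAST libraries were above its CAST/B6 libraries in both tissues, so the gap between tissues was wider within each cross.

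The other falls ranged from -1.01 for Foxi2 to -0.39 for Foxj1, which drives motile cilia. Foxd4 (-0.95), Foxe3 of the lens (-0.77), Foxd1 (-0.56), Foxo6 (-0.52) and Foxe1 of the thyroid (-0.43) were lower as well. The calls of Foxe1, Foxj1 and Foxp1 were lost in 4, 5 and 4 of the 12 fits that left out 1 library, and those of the other 12 in none.

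Foxr1 alone was higher in ExE. Its short region (chr9:44440000-44442500) covers the start and the promoter printed above, and had 1.51 and 1.61 RPKM in B6/CAST epiblast, 0.329 and 0.896 in CAST/B6 epiblast, 4.44 and 3.22 in B6/CAST ExE and 1.54 and 1.63 in CAST/B6 ExE. The ranges of the tissues overlapped only across crosses, and within each cross both ExE libraries were above both epiblast libraries. The log2 difference was 1.00 ± 0.169 (limma, adjusted p = 1.2e-05), and matDKO/CAST had 2.13 and 2.41 RPKM in epiblast and 3.57 and 4.43 in ExE.

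**Figure D1:**
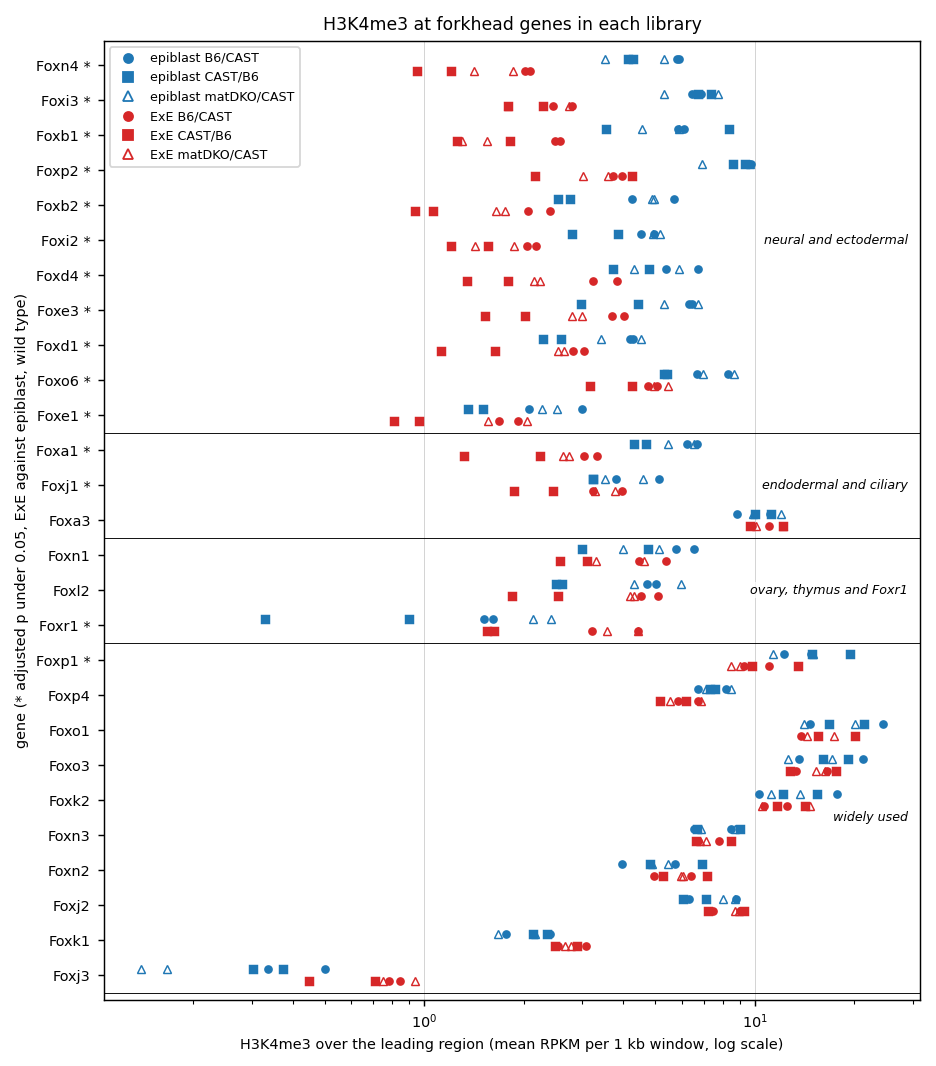
H3K4me3 over the leading region of 27 forkhead genes, in mean RPKM per 1 kb window on a log axis, with 1 symbol per library, blue for epiblast and red for ExE, and the cross by shape. In the neural and ectodermal group all 11 genes drawn are starred as lower in ExE, and most of the widely used genes overlap between tissues.

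Over their leading regions the widely used genes had small differences, from -0.47 to 0.44 on the log2 scale. The highest levels were those of Foxo1, Foxo3, Foxp1 and Foxk2. Some other regions named for widely used genes changed more. A Foxp1 region (chr6:99262500-99267500) had 3.39 RPKM in epiblast and 0.901 in ExE (-1.46), and a Foxn3 region (chr12:99411000-99417000) fell too (-1.05). Another Foxp1 region (chr6:99452000-99454500) rose (1.07). Foxo1, an effector of insulin signalling, had 24.4, 14.7, 21.4 and 16.8 RPKM in wild-type epiblast and 15.5, 13.8, 15.6 and 20.1 in ExE (log2 difference -0.23 ± 0.19, limma, adjusted p = 0.34). The libraries of a single tissue spanned as much as the distance between tissues, and the 95% interval of the difference ran from -0.62 to 0.16. Foxp1 had 14.8, 12.2, 19.4 and 14.9 RPKM in epiblast and 11, 9.27, 9.79 and 13.5 in ExE (-0.47, adjusted p = 0.024), with overlap between the tissues. Foxj3 had the lowest level, 0.304 to 0.5 RPKM in wild-type epiblast and 0.449 to 0.842 in ExE, in a region outside its start, and its difference of 0.44 did not pass (adjusted p = 0.051). Inputs over the leading regions of H3K4me3 averaged between 0.348 RPKM (Foxp2 in ExE) and 0.625 RPKM (Foxj3 in epiblast), so Foxj3 lay near the level of the inputs.

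Within 1 kb of the gene start, where all 29 members can be measured, H3K4me3 was lower in ExE at 10 members and higher at 1. Of the 13 neural and ectodermal genes 8 were lower, and their differences ran from -1.61 to 0.10. Over the starts of 20780 autosomal protein-coding genes, 7.76% were lower and 2.01% higher, and the median was -0.02 against -0.40 for the members. Foxn4 had 12.6, 11.9, 8.93 and 9.34 RPKM at its start in epiblast and 4.29, 4.51, 1.92 and 2.5 in ExE. Foxn3, a forkhead gene tied to the DNA damage checkpoint, was called only here. Its leading region, which does not hold its start, had 7.69 RPKM in epiblast and 7.41 in ExE (-0.04, adjusted p = 0.85). Its start had 25.3, 22, 26.6 and 22.6 RPKM in epiblast and 13.4, 12.5, 12.4 and 16.8 in ExE, without overlap (-0.79, limma, adjusted p = 0.0044). Without ExE B6/CAST replicate 2 the lower starts were 6, and the call of Foxr1 was lost without replicate 1 of B6/CAST in either tissue.

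The H3K4me3 peak over the start was also narrower in ExE. In B6/CAST 26 members had such a peak in both tissues, of which 19 were narrower and 5 wider in ExE (19.2% wider, against 55.1% of 13884 genes). In CAST/B6 18 of 25 were narrower and 4 wider (16% wider, against 45.7% of 13456 genes). The peak of Foxi3 measured 15.0 kb in B6/CAST epiblast and 4.5 kb in ExE, and that of Foxd1 measured 18.5 and 9.0 kb. Foxn2 went the other way, with 4.5 kb in epiblast and 13.5 kb in ExE. Peaks were called once per cross and tissue from both libraries together, so widths carry no replicate error.

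H3K27me3 at forkhead genes was compared next. Within 1 kb of the start it was lower in ExE at 9 of 29 members and higher at 2, against 9.42% lower and 5.64% higher over all 20780 starts. The median difference was -0.26 for the members and -0.05 for all genes. The lower starts were those of Foxj2, Foxn2, Foxe1, Foxa3, Foxl2, Foxb2, Foxe3, Foxd4 and Foxi2, which span all 4 groups, and the higher ones were Foxp1 and Foxn3 of the widely used group. Leaving out any 1 of the 8 wild-type libraries left 2 to 3 lower members, with Foxj2 and Foxn2 called in all 12 fits, while 18 were lower with centred libraries (41.2% of all starts) and 3 lower and 6 higher after quantile normalization (8.72% and 8.36%). Over the same starts the called peak was wider in ExE at 14 of the 15 members that had a peak in both tissues of B6/CAST, with medians of 29.5 kb in epiblast and 64.5 kb in ExE. That share was near the background, since 88.6% of 4213 genes were wider in ExE, with medians of 12 and 30 kb. In CAST/B6 it was 16 of 16 members, from 34.5 to 66.5 kb, against 93% of 4734 genes.

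Foxj2, a widely used member, had the largest fall at its start, from 1.46, 1.87, 1.89 and 1.5 RPKM in wild-type epiblast to 0.228, 0.413, 0.32 and 0.227 in ExE. The log2 difference was -1.45 ± 0.24 (limma, adjusted p = 0.0055), and the tissues were far apart in both crosses. Its H3K27me3 peak of 5.5 kb in B6/CAST epiblast was absent in ExE, where the level was below the input, which averaged 0.556 RPKM over the leading region. Foxn2 had 0.913, 1.39, 1.53 and 1.4 RPKM in epiblast and 0.373, 0.574, 0.582 and 0.249 in ExE (-0.94). Both genes kept an H3K4me3 peak over the start in both tissues.

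Falls from a higher level were seen at neural and ectodermal genes, though the 3 described here lost their call in 8 of 12 fits without 1 library and under quantile normalization, where Foxb2 (0.02) and Foxe3 (0.13) changed sign. Foxb2 had 9.05, 9.42, 12 and 11 RPKM at its start in epiblast and 5.51, 5.53, 6.43 and 7.2 in ExE (-0.70 ± 0.17, limma, adjusted p = 0.023), with no overlap. Foxe1 had 7.75, 8.36, 9.48 and 11.7 RPKM in epiblast and 5.32, 3.88, 6.14 and 5.43 in ExE (-0.79). Foxe3 had 9.08, 10, 15.8 and 13.5 RPKM and 7, 5.65, 9.04 and 7.72 RPKM in the same order (-0.67), so its highest ExE library came close to its lowest epiblast library. Foxb2 was the one member whose peak was narrower in ExE in B6/CAST, with 26.0 against 21.5 kb.

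Foxp1 and Foxn3 had the rises. At the Foxp1 start H3K27me3 was 0.543, 0.403, 0.27 and 0.218 RPKM in epiblast and 1.12, 0.827, 1.18 and 1.16 in ExE (0.88 ± 0.13, limma, adjusted p = 0.0035). At the Foxn3 start it was 0.395, 0.403, 0.449 and 0.187 RPKM in epiblast and 1.14, 1.15, 0.771 and 0.838 in ExE (0.78 ± 0.12, adjusted p = 0.004). Neither start had an H3K27me3 peak in epiblast, and both had one in ExE, of 11.5 and 19 kb in B6/CAST. The start of Foxn1, the regulator of thymus epithelium, had 1.73, 0.953, 1.28 and 1.12 RPKM in epiblast and 2.71, 1.45, 2.78 and 2.35 in ExE, which overlapped and did not pass (adjusted p = 0.065), although its ExE peak measured 29.5 kb in B6/CAST with none in epiblast.

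**Figure D2:**
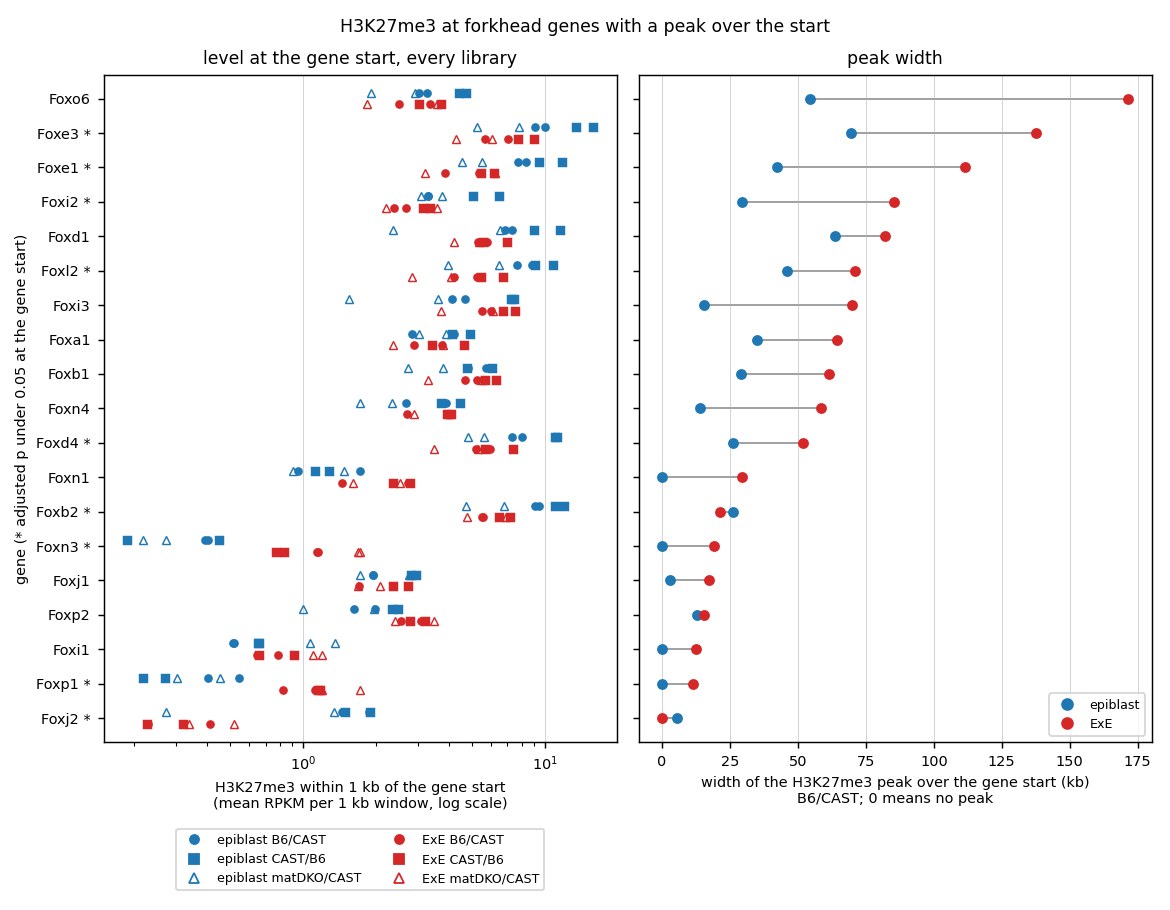
Left, H3K27me3 within 1 kb of the start of forkhead genes with an H3K27me3 peak there in B6/CAST, in mean RPKM per 1 kb window on a log axis, with 1 symbol per library. Right, the width in kb of the called peak over the start in B6/CAST epiblast (blue) and ExE (red), where 0 means no peak. The peaks of 13 of 14 genes drawn with a peak in both tissues widen to the right, while most starred genes have lower levels in ExE.

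Averaged over the whole leading region, H3K27me3 was lower in ExE at 8 of 22 members and higher at 7. The shares among all 11066 leading regions were 12.3% lower and 47.6% higher. A leading region that holds the start takes in any widened flanks, but those of Foxn2, Foxo1, Foxo3, Foxk1 and Foxp4 do not hold the start. None of the 7 rises passed once libraries were centred on their median. The median of all regions was itself 0.21 higher in ExE on the log2 scale, and the median was 0.10 for the members against 0.22 for all leading regions. Over all 23399 regions, 10584 were higher and 2032 lower, and after centring 2549 and 3736. Among the falls were Foxj2 (-1.09), Foxn2 (-0.73), Foxb2 (-0.69), Foxa3 (-0.68), Foxl2 (-0.44), Foxa1 (-0.40) and Foxd1 (-0.38). Relative to the shift of all regions that of Foxj2 was -1.30.

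Foxa1 had 2.37, 3.36, 3.89 and 3.53 RPKM in epiblast and 2.24, 2.02, 2.89 and 2.31 in ExE, with overlap (adjusted p = 0.033), and leaving out 1 library ended its call in 6 of 12 fits and that of Foxd1 in 5. Foxa3 kept its call in all 12 of those fits. Foxa3 had 0.962, 1.47, 1.3 and 1.65 RPKM in epiblast and 0.497, 0.39, 0.99 and 0.77 in ExE, and Foxl2 had 2.36, 2.76, 3.52 and 3.3 RPKM and then 1.93, 1.71, 2.42 and 2.22. In both the highest ExE library reached the lowest epiblast library. The regions of Foxj2 and Foxn2 were called as peaks in epiblast alone, and that of Foxr1, named next, in ExE alone, so these entered the test through the tissue where they were high. Quantile normalization ended the calls of Foxb2 (-0.12), Foxl2 (-0.12), Foxd1 (-0.06) and Foxa1 (-0.02).

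The 7 higher members were Foxn1 (0.44), Foxp1 (0.42), Foxj1 (0.37), Foxi3 (0.37), Foxp4 (0.36), Foxn4 (0.33) and Foxr1 (0.26), and relative to the shift of all regions these rises were 0.04 to 0.23. Foxp1 had 0.854, 0.843, 0.431 and 0.343 RPKM in epiblast and 1.06, 0.767, 1.17 and 0.879 in ExE, with overlap, and its rise lay in CAST/B6 (0.78), with 0.06 in B6/CAST. Foxn1, with the largest, had 1.07, 0.627, 0.882 and 0.724 RPKM in epiblast and 1.18, 1.02, 1.52 and 1.46 in ExE over a region of 85.0 kb, with overlap. Foxi3 had 0.848, 0.734, 1.14 and 0.994 RPKM in epiblast and 1.29, 1.14, 1.49 and 1.41 in ExE over 126.0 kb, with the lowest ExE value level with the highest epiblast value. In ExE the peak over its start was named for 1700011F03Rik, that of Foxn4 for Acacb and that of Foxl2 for 7420426K07Rik. The H3K27me3 of these regions cannot be assigned to the forkhead gene alone. Foxj1 had 0.847, 0.748, 0.728 and 0.627 RPKM in epiblast and 1.21, 0.988, 1.17 and 1.04 in ExE. Foxp4 had 0.864, 0.748, 1.03 and 0.814 RPKM and then 1.22, 1.09, 1.38 and 1.31. Its region (chr17:47798500-47864500) lies outside the gene (chr17:47867133-47924645), and no H3K27me3 peak covered its start in either tissue. Foxj1 and Foxp4 did not overlap between tissues, whereas Foxn4 did, with 1.11, 0.794, 1.16 and 0.861 RPKM in epiblast and 1.41, 1.08, 1.5 and 1.44 in ExE. The calls of Foxn4 and Foxr1 were lost in 5 and 6 of 12 fits that left out 1 library.

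**Figure D3:**
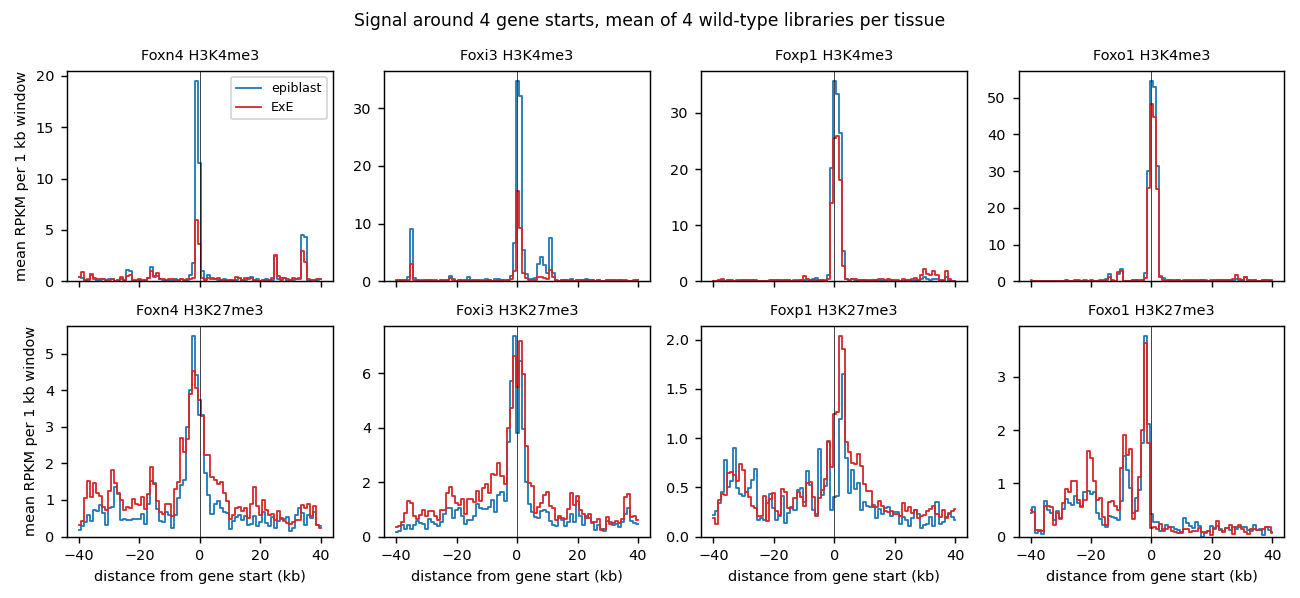
Mean RPKM of the 4 wild-type libraries per tissue in 1 kb windows from 40 kb upstream to 40 kb downstream of 4 gene starts, H3K4me3 above and H3K27me3 below, epiblast in blue and ExE in red. At Foxn4 and Foxi3 the H3K4me3 peak is lower in ExE while H3K27me3 spreads into the flanks, at Foxp1 H3K27me3 appears at the start, and at Foxo1 the tissues run close together.

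Peaks of both marks lay over the start of 16 of the 29 members in B6/CAST epiblast (55.2%, against 18.8% of all genes) and of 17 in ExE (58.6%, against 23.2%). In CAST/B6 the numbers were 17 (58.6%, against 20.6%) and 19 (65.5%, against 23.9%). In B6/CAST Foxa1, Foxb1, Foxb2, Foxd1, Foxd4, Foxe1, Foxe3, Foxi2, Foxi3, Foxj1, Foxl2, Foxn4, Foxo6 and Foxp2 had both marks in both tissues. Foxa3, Foxk1, Foxk2, Foxn2, Foxo1, Foxo3, Foxp4 and Foxr1 had H3K4me3 alone in both. The tissues differed at 6 starts, where Foxn3 and Foxp1 had H3K27me3 beside H3K4me3 in ExE alone, Foxi1 and Foxn1 went from no peak to H3K27me3, Foxj3 from no peak to H3K4me3, and Foxj2 from both marks to H3K4me3. CAST/B6 differed from this at 3 genes, where Foxa3 had both marks in both tissues, Foxr1 went from no peak to both marks, and Foxj3 had no peak in either.

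Changes of both marks at the starts of the 29 members were set against each other. Both were below 0 at 12 members, H3K4me3 alone was below 0 at 7, H3K27me3 alone at 8, and neither at 2. Pearson's r across the 29 genes was -0.23, against -0.12 across 20780 genes. H3K4me3 at the start and H3K36me3 over the gene body had r = 0.61 across the members and 0.32 across all genes, and H3K27me3 and H3K36me3 had -0.48 and -0.29. These are descriptions across genes, which are not independent replicates, and all points share the same libraries and pools.

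**Figure D4:**
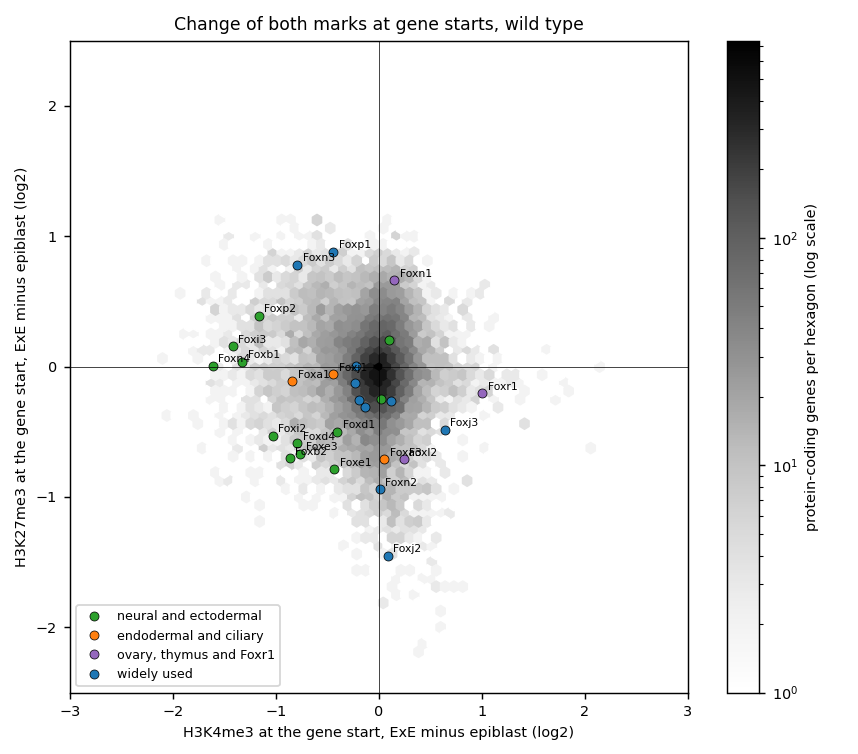
Wild-type log2 differences, ExE minus epiblast, of H3K4me3 (horizontal) and H3K27me3 (vertical) within 1 kb of the start, with 28 members as coloured points by group and all 20780 protein-coding genes as grey hexagons shaded by number on a log scale. Most neural and ectodermal genes lie to the left, Foxj2 and Foxn2 near 0 on the horizontal axis and lowest on the vertical, and Foxp1, Foxn3 and Foxn1 highest.

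H3K36me3, the mark of transcribed bodies, had a leading region at 13 members, 10 of them widely used. It was higher in ExE at 7 and lower at 3, against 56.6% higher and 11.5% lower among all 10517 leading regions. The member share was near that background, with a median of 0.29 against 0.27. The median of all 24238 regions was -0.14, and centring on it moved the calls over all regions from 5543 higher and 6803 lower to 7720 and 2683, and those of the members from 7 and 3 to 7 and 2. Higher were Foxn2 (0.46), Foxk1 (0.44), Foxj2 (0.40), Foxp4 (0.39), Foxk2 (0.35), Foxa3 (0.35) and Foxj3 (0.29), and lower were Foxi3 (-0.83), Foxp1 (-0.45) and Foxp2 (-0.35).

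Foxn2 had 0.98, 0.766, 1.25 and 1.19 RPKM over a region of 77.5 kb in epiblast and 1.97, 1.6, 1.36 and 1.55 in ExE. Its tissues were far apart in B6/CAST (0.74 on the log2 scale) and close in CAST/B6 (0.18). Foxk1, whose protein regulates metabolism, had 0.72, 0.618, 0.837 and 0.701 RPKM in epiblast and 1.18, 1.19, 1.09 and 1.15 in ExE, with every ExE library above every epiblast library (limma, adjusted p = 0.0012). Foxj2 had 0.752, 0.673, 0.986 and 1.03 RPKM in epiblast and 1.32, 1.27, 1.15 and 1.39 in ExE, over a region of 121.5 kb that also bears the name of Slc2a3.

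Foxp4 had 0.934, 0.804, 0.895 and 0.892 RPKM in epiblast and 1.57, 1.29, 1.15 and 1.27 in ExE. Foxk2 and Foxa3 share their regions with the names of neighbours (Hexdc and Narf, and Sympk), so their H3K36me3 cannot be assigned to the forkhead gene alone. Foxk2 had 0.991, 0.819, 1.09 and 1.18 RPKM in epiblast and 1.56, 1.45, 1.38 and 1.35 in ExE, and Foxa3 had 0.861, 0.784, 0.921 and 0.973 RPKM in epiblast and 1.42, 1.26, 1.14 and 1.24 in ExE. In both genes the tissues did not overlap. The call of Foxj3 was lost without epiblast CAST/B6 replicate 2 (0.26 on the log2 scale, adjusted p = 0.053), after quantile normalization (0.10) and with the replicate block.

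The 3 falls were at genes with less H3K4me3 in ExE. The regions of Foxi3 and Foxp2 were called as peaks in epiblast alone, so they entered the test through the tissue where they were high. Over the whole gene body Foxi3 was called and Foxp2 was not. Foxi3 had 1.18, 1.07, 1.61 and 1.62 RPKM in epiblast and 0.427, 0.492, 0.53 and 0.732 in ExE over 6.0 kb (limma, adjusted p = 0.00053). Foxp1 had 1.07, 0.92, 1.14 and 1.16 RPKM in epiblast and 0.677, 0.71, 0.573 and 0.622 in ExE over 98.5 kb, without overlap (limma, adjusted p = 0.0013). That region covers the end of the gene far from its start. A further Foxp1 region (chr6:99055500-99083500) was lower too (-0.35), while those nearest the start, such as chr6:99448500-99488500 (-0.03), were not called. Over the whole body of Foxp1 the difference was -0.16 (limma, adjusted p = 0.015). Foxp2 had 0.64, 0.516, 0.43 and 0.453 RPKM in epiblast and 0.273, 0.323, 0.296 and 0.27 in ExE, levels below the mean input of 0.499 and 0.479 RPKM in most libraries, and its call was lost in 7 of 12 fits that left out 1 library.

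**Figure D5:**
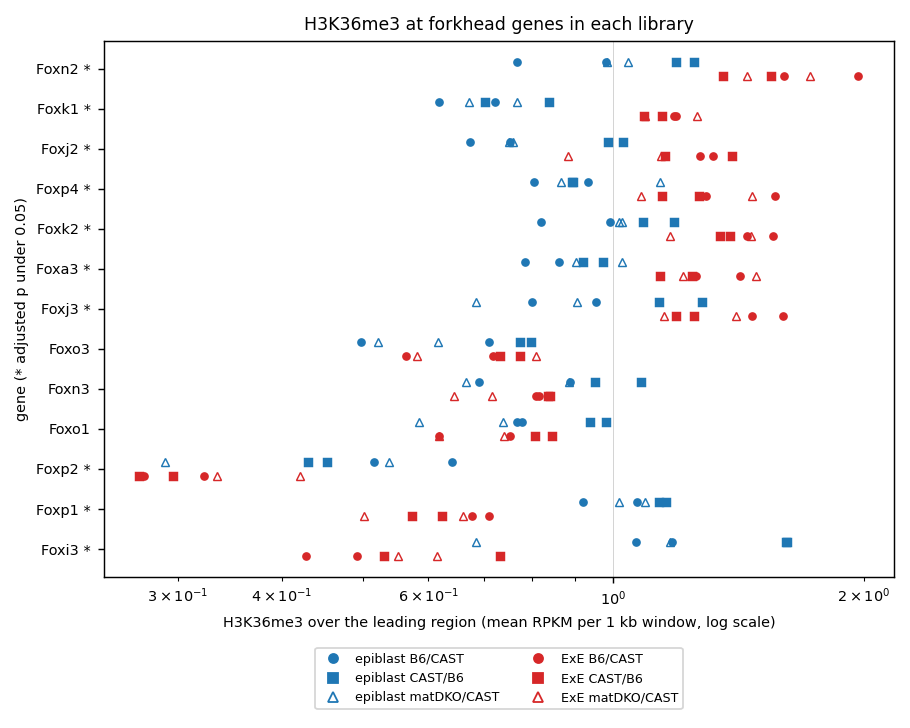
H3K36me3 over the leading region of 13 forkhead genes, in mean RPKM per 1 kb window on a log axis, with 1 symbol per library, blue for epiblast and red for ExE. The 7 starred genes at the top are higher in ExE and the 3 starred genes at the bottom are lower, and Foxo3, Foxn3 and Foxo1 between them overlap.

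Over whole gene bodies H3K36me3 was higher at 7 of 29 members and lower at 3 (Foxi3, Foxp1 and Foxa1), against 31% higher and 6.23% lower of all genes. The widely used group held 6 of the rises and 1 fall among its 10 genes, and the 13 neural and ectodermal genes held 1 fall. None of the rises passed after quantile normalization, where those of Foxj3 and Foxk2 changed sign, and without ExE B6/CAST replicate 1 there were 4 rises and 1 fall. The falls of Foxp1 (-0.01) and Foxa1 (-0.18) were not called with centred libraries, and that of Foxa1 not after quantile normalization.

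Whether the tissue difference depended on DNA methylation inherited from the mother was tested as the difference between the tissue effects of matDKO/CAST and B6/CAST. At an adjusted p-value below 0.05 limma called 0 of 28 members for H3K4me3, 0 of 22 for H3K27me3 and 0 of 13 for H3K36me3. At an unadjusted p-value below 0.05 the numbers were 0, 1 and 0, against 4.02%, 5.27% and 14.1% of all regions. With edgeR they were 0, 0 and 0 adjusted and 1, 2 and 5 unadjusted, against 2.05%, 5.33% and 16.8% of all regions unadjusted. Over all regions the adjusted call rate was 0% for H3K27me3 and H3K36me3, and 1 region (0.00219%) was called for H3K4me3. The test had a median SE of 0.318 on the log2 scale for the H3K4me3 members, and the differences ranged from -0.47 to 0.52. For Foxn4 the difference was 0.12 ± 0.311, for Foxi3 -0.14 ± 0.314 and for Foxr1 -0.36 ± 0.338. The H3K27me3 region of Foxk1 had the largest, -0.52 ± 0.187 (limma, adjusted p = 0.80).

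Within matDKO/CAST, H3K4me3 was lower in ExE at 10 of 28 members and higher at 2, against 14.6% and 4.38% of all leading regions. The sign was that of the wild type at 26 members, and the exceptions, Foxk2 and Foxo3, were called in neither. The 12 neural and ectodermal genes all kept their sign and 9 were called, led by Foxb1 with 5.88 and 4.55 RPKM in matDKO/CAST epiblast and 1.3 and 1.55 in ExE (-1.56). H3K27me3 was lower at 3 members (4.7% of all leading regions) and higher at 0 (10.9%). Of its 7 rises called in the wild type 6 kept their sign, and that of Foxr1 turned to -0.22. H3K36me3 was higher at 4 (24.9%) and lower at 1 (2.28%).

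The reciprocal crosses were compared in the same way, and no member's tissue effect differed between CAST/B6 and B6/CAST at an adjusted p-value below 0.05 in limma. Unadjusted, 0, 1 and 4 members passed for H3K4me3, H3K27me3 and H3K36me3, against 3.03%, 3.64% and 21.9% of all regions. The 1 for H3K27me3 was Foxp1 (0.71 ± 0.192). The 4 for H3K36me3 were Foxn2 (-0.56 ± 0.160), Foxj3 (-0.55 ± 0.158), Foxj2 (-0.34 ± 0.148) and Foxk2 (-0.32 ± 0.140), whose gain in ExE was smaller in CAST/B6. Among all leading regions of this mark 7.87% were called lower in CAST/B6 and 0.124% higher.

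Maternal and paternal reads were compared to ask whether the mark at any forkhead gene followed the parent or the strain. No member peak had the same parent higher in both wild-type crosses, in any of the 6 tables, and none had the same strain higher. A peak was informative with at least 20 reads in 1 allele column, and each cross was tested with edgeR. Informative were 37 of 59 member peaks for H3K4me3 in epiblast and 44 of 73 in ExE, where 0.108% and 0.319% of all peaks followed the parent and 0.841% and 3.96% the strain. For H3K27me3 they were 17 of 21 and 16 of 23, with 0.325% and 1.35% for the parent and 1.01% and 4.32% for the strain. For H3K36me3 they were 26 of 35 and 19 of 31, with 0.0632% and 0.251% for the parent and 0.424% and 1.1% for the strain. At an unadjusted p-value below 0.05 in both crosses, edgeR found 0 member peaks for the parent, against 0.190% to 2.86% of all peaks by table, and 1 for the strain, in H3K36me3 of ExE, where 4.76% of all peaks passed. Each library had 270678 to 6821523 allele-assigned reads. Counts were simulated for B6/CAST alone, with differences placed in peaks that averaged at least 20 reads per allele column. There a log2 allelic difference of 2 was found in 93 to 99% of peaks and one of 1 in 12 to 28%. The calls above needed both crosses and took in peaks with fewer reads, for which no such share was simulated. Biases of the smaller size would mostly not be detectable at this depth.

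The median maternal share over member peaks of H3K4me3 in epiblast was 50.3% (B6/CAST) and 49.6% (CAST/B6), and 50.5% in both crosses in ExE. The corresponding H3K36me3 shares were 53.4% and 47.0% in epiblast, and 53.2% and 47.0% in ExE, against 51.1% and 48.8%, and 51.2% and 48.9%, over all informative peaks. Single crosses gave a few calls. In matDKO/CAST epiblast 2 H3K4me3 peaks were maternally higher (7.17% of all peaks called). A Foxk1 peak (chr5:142410000-142418000) had maternal shares of 70.4% and 76.0%, from 69 maternal and 27 paternal reads, and the Foxa3 start had 62.7% and 61.3% (edgeR, adjusted p = 0.0102 and 0.00563). In B6/CAST the same peaks had 65.4% and 51.8%, and were not called. In matDKO/CAST the authors added reads assigned to 129 to the maternal side alone, which can raise the maternal share.

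Among wild-type single-cross calls, the Foxn3 H3K36me3 peak of ExE (169.5 kb) had maternal shares of 60.5% and 59.8% in B6/CAST (edgeR, adjusted p = 1.77e-05, 5.69% of peaks called) and 45.6% over both libraries of CAST/B6. H3K4me3 in B6/CAST ExE gave 2 calls, at Foxn1 and Foxn3 with 43.4% and 38.3% maternal (13.6% of peaks called). H3K27me3 gave 3 in CAST/B6 epiblast (12.9%), at Foxb1, Foxl2 and Foxn2 with 42.6%, 55.2% and 60.0% maternal. In ExE it gave Foxn1 in B6/CAST (11%) with 46.6% and Foxd1 in CAST/B6 (21.8%) with 53.7%. None passed in the other cross.

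The 11 forkhead genes that name no peak were measured at their starts. Foxd3, a gene of pluripotent epiblast and neural crest, had the largest fall of H3K4me3 in the family, from 22.9 and 19.2 RPKM in B6/CAST and 15.1 and 22.5 in CAST/B6 epiblast to 7.77 and 8.26, and 2.63 and 4.32 in ExE. The difference was -1.81 ± 0.22 (limma, adjusted p = 0.0018), without overlap, while its H3K27me3 had 4.15 and 4.5 RPKM on average (adjusted p = 0.67). Foxh1, the DNA-binding partner of Smad proteins in Nodal signalling, had 28.8, 27.9, 37.8 and 25.4 RPKM of H3K4me3 in epiblast and 15.1, 14, 15.5 and 19.8 in ExE. Its tissues did not overlap, but the difference of -0.87 ± 0.23 lay just outside the threshold (adjusted p = 0.0503), and H3K27me3 was at most 0.257 RPKM in both tissues. Among 15 genes of the Nodal pathway 4 were lower in ExE for H3K4me3, namely Nodal, Tdgf1, Lefty1 and Gdf1, and 0 were higher. For H3K27me3 4 were lower and 1 higher, and for H3K36me3 over bodies 4 were lower and 6 higher. Over all genes 7.76% were lower and 2.01% higher for H3K4me3, 9.42% and 5.64% for H3K27me3, and 6.23% and 31% for H3K36me3.

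Foxf1, Foxc2 and Foxl1 lie side by side on chromosome 8, and Foxf1 and the Foxc genes act in mesoderm. Foxf1 had 17, 12.9, 15.2 and 6.57 RPKM of H3K4me3 at its start in epiblast and 15.8, 13.3, 16.4 and 20.4 in ExE (0.40, adjusted p = 0.52), and Foxc2 had 10.2, 8.35, 12.7 and 5.38 RPKM and then 8.15, 8.08, 3.19 and 4.8 (-0.59, adjusted p = 0.27). Foxl1, of the gut mesenchyme, had 6.79, 7.62, 3.67 and 3.06 RPKM and then 5.01, 4.09, 1.52 and 1.99 (-0.70, adjusted p = 0.038), so that it alone of the cluster was called. H3K27me3 averaged 6.4 RPKM in epiblast and 4.11 in ExE at Foxf1, 7.48 and 4.75 at Foxc2, and 9.16 and 5.69 at Foxl1, with a call again at Foxl1 alone (-0.63, adjusted p = 0.041). These calls were lost in 9 and 8 of the 12 fits without 1 library, and after quantile normalization the H3K4me3 call was lost and the H3K27me3 difference turned to 0.03 (adjusted p = 0.86).

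Foxq1, Foxf2 and Foxc1 form a cluster on chromosome 13. At Foxq1 H3K27me3 fell from 6.14 and 7.14 RPKM in B6/CAST and 11.6 and 12.3 in CAST/B6 epiblast to 2.59 and 2.5, and 4.61 and 3.94 in ExE. Both ExE libraries of each cross were far below both epiblast libraries (-1.31 ± 0.14, limma, adjusted p = 0.00075), and H3K4me3 there averaged 4.31 RPKM in epiblast and 3.5 in ExE (adjusted p = 0.5). Foxf2 had 5.57 and 4.33 RPKM of H3K27me3 (adjusted p = 0.16) and 11 and 11.2 RPKM of H3K4me3. Foxc1 had 8.33 and 5.2 RPKM of H3K27me3 (adjusted p = 0.052) and 11.9 and 8.81 RPKM of H3K4me3 (adjusted p = 0.41).

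Of the rest, Foxd2 had less H3K27me3 in ExE (8.92 and 4.69 RPKM, -0.85, adjusted p = 0.007, but -0.24 and not called after quantile normalization) and 9.19 and 10.8 RPKM of H3K4me3, which was not called. Foxs1 had more H3K27me3 in ExE, with 2, 1.1, 1.59 and 1.15 RPKM in epiblast and 3.31, 2.59, 3.94 and 3.58 in ExE (0.99, adjusted p = 0.0086). Its H3K4me3 passed too (0.39, adjusted p = 0.027), at 0.128 and 0.322 RPKM, and was lost in 6 of 12 fits without 1 library, with centred libraries (adjusted p = 0.45) and after quantile normalization (adjusted p = 0.15). Foxm1, which drives the genes of mitosis, had 31.6, 22.1, 38.1 and 27.4 RPKM of H3K4me3 in epiblast and 28, 24.1, 28.9 and 35.7 in ExE (adjusted p = 1). Its H3K36me3 over the gene body was higher in ExE, with 1.14, 0.948, 1.12 and 1.45 RPKM in epiblast and 2.05, 1.76, 1.46 and 1.67 in ExE (0.43, adjusted p = 0.015), a call lost in 4 of those 12 fits and after quantile normalization (0.07, adjusted p = 0.63).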

How the data were processed

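Reads had been trimmed by the authors with Trim Galore, version 0.4.4 by the submitters' processing notes. The methods give another version in their sentence on RNA-seq. By the methods and those notes, reads were aligned with Bowtie2 2.3.2 to GRCm38 with the variants between B6 and CAST masked. The authors called peaks with chromstaR per mark, tissue and wild-type cross, from both libraries together. The deposited peak lists hold a score of 0 throughout, which was not used. The deposited allelic tables hold raw read counts per merged peak and parent. A further table deposited by the authors gives RPKM per 1 kb window on the autosomes, from reads of either allele. In every library 100% of the low values tested were whole multiples of the value of 1 read (within 0.02 reads), so reads were recovered for the count tests.

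Peaks of both tissues were merged per mark where they overlapped, into 45650, 23399 and 24238 regions for H3K4me3, H3K27me3 and H3K36me3. Region means were compared as log2(RPKM + 0.5) with limma 3.58.1 (1 mean per group, trend, two-sided, Benjamini-Hochberg over all regions). The wild-type contrast is the mean of both crosses. Windows within 1 kb of the start, or over the gene body for H3K36me3, were tested alike over 20780 genes of GENCODE on GRCm38. Allelic counts were tested with edgeR 4.0.16 (quasi-likelihood, TMM, each cross alone). R 4.3.3 and Python 3.11.15 were used. The scripts were tested on simulated data, where a log2 tissue difference of 2 was found in 100% and one of 1 in 34 to 50% of regions. Groups and replicate numbers came from the labels. The members and gene lists were chosen with earlier results of these data known. The members are named except 1 that is not reported here and is drawn in no figure, though counts and medians over the members include it. Full values, over the leading region or at the start, are given for the 6 largest rises and falls per mark among called genes, the clusters on chromosomes 8 and 13, and Foxd3, Foxh1, Foxa1, Foxo1, Foxm1 and Foxp1. Alternatives were pseudocounts of 0.1 and 1, a minimum mean RPKM of 1, centred and quantile-normalized values, edgeR and DESeq2 1.42.0 on recovered reads, regions with a peak of both wild-type crosses, windows with most of their length in the region, an adjusted p-value below 0.01, subtracted input, a replicate block, the gene windows, and fits without 1 library, the last also with centring and quantile normalization on gene windows, added after seeing the data.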

Additional observations from a re-analysis of the deposited data

How the results depend on the processing

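Of the 41 calls of a member in a mark made over the leading regions, 32 passed in all 12 fits without 1 library and 24 passed in these and in the 8 other settings that keep every region and the threshold, namely both pseudocounts, centring, quantile normalization, edgeR, DESeq2, subtracted input and the block. None changed sign in those fits. In the windows around starts and over bodies some calls changed sign after quantile normalization. The 22 member and mark pairs that were not called changed sign in 36 of 440 recomputed values, and 13 passed in at least 1 setting.

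For H3K4me3, the 1 higher member became 2 with a pseudocount of 1 RPKM, 2 with subtracted input, 3 with edgeR and 4 after quantile normalization, and 1 to 2 without 1 library. The 15 lower members were 12 to 15 without 1 library and 10 to 18 in all settings. Centring moved the calls over all H3K4me3 regions from 13138 higher and 8627 lower to 9529 and 10667, and those of the members stayed at 1 and 15. The 7 higher members of H3K27me3 were 0 with centred libraries, 1 with DESeq2, 2 with edgeR, 2 around the gene start, 4 with a mean RPKM of at least 1 (13 members left) and 5 to 8 without 1 library. Its 8 lower members were 5 after quantile normalization, 5 at an adjusted p-value below 0.01 and 6 to 8 without 1 library. edgeR called 3700 of all regions higher and 4468 lower for this mark. For H3K36me3, the 7 higher and 3 lower members were 6 to 7 and 2 to 3 without 1 library, and 6 and 0 with a mean RPKM of at least 1, which left 6 members. The cause of these shifts was not tested, apart from the fewer members left by the filter on RPKM.

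With the replicate number as a block, 2 members were higher and 18 lower for H3K4me3, 9 and 8 for H3K27me3, and 6 and 2 for H3K36me3, and 0 differed between matDKO/CAST and B6/CAST. The windows around starts and over bodies were recomputed in settings chosen after seeing the data. Without 1 library the starts with less H3K4me3 were 6 to 12 and those with more 0 to 1, for H3K27me3 2 to 10 and 2 to 3, and the bodies with more H3K36me3 were 4 to 7 and with less 1 to 4. Centring gave 18 lower starts for H3K27me3 and 1 lower body for H3K36me3. Quantile normalization gave 4 higher starts for H3K4me3, 6 higher and 3 lower for H3K27me3, and 0 higher bodies for H3K36me3. The block of library in the allelic tests left 0 member peaks. The labels do not say that a number marks a shared pool, and deviations of same-numbered epiblast and ExE libraries correlated at -0.01 to 0.35, so the numbers were not taken to pair the samples. Parent and strain counts were 0 in all 120 values computed. The setting on windows was the main fit again and tested nothing. All peak bounds are multiples of 500 bases, so every overlapped window has at least 500 bases in the region. With 2 pools per group, differences near 1 on the log2 scale were often missed on simulated data. That simulation changed 100 regions at each size, whereas 13138 higher and 8627 lower regions were called for H3K4me3. Its shares therefore need not hold for the real data, where a fall of -0.39 (Foxj1) passed for H3K4me3.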
